A study of Mus musculus with 6 samples.

Results

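The genes that encode the secreted and membrane-bound cues of axon guidance, and the receptors that read them, were compared between chronic stroke infarcts and the contralateral cortex of mice. Members were the protein-coding genes whose symbols name a semaphorin of class 3 to 7, a plexin, an Eph receptor, an ephrin, a Slit (1 to 3) or a Robo (1 to 4). There were 58 such genes among 46078 gene IDs in the count tables, of which 21596 were annotated as protein-coding. They comprised 20 semaphorins, 9 plexins, 14 Eph receptors, 8 ephrins, 3 Slits and 4 Robos, that is, 31 ligands and 27 receptors. After a filter on low counts, 56 of the 58 were among the 15554 genes tested, and *Efna4* and *Epha1* were not.

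Axon guidance molecules steer growing axons during development, mostly by repulsion, and many remain expressed in the adult brain. Semaphorins act on plexins, with neuropilins as coreceptors for most secreted class 3 members. Ephrins are themselves membrane-bound, A ephrins by a lipid anchor and B ephrins by a transmembrane segment, and bind Eph receptor tyrosine kinases on neighboring cells. Slits are large secreted proteins that bind Robo receptors. The same molecules also act outside axons: *Sema4d* is carried by immune cells and oligodendrocytes, *Ephb4* and *Efnb2* mark venous and arterial endothelium, and *Robo4* is an endothelial Robo. In the injured brain, several of them are studied as inhibitors of axon regrowth.

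RNA-Seq had been performed on 3 infarcts and 3 equivalent regions of the contralateral cortex of wild type C57BL/6J mice, labeled as 3 months of age, at 7 weeks after stroke. Per the study's methods, the mice were male, stroke was induced by distal middle cerebral artery occlusion with hypoxia (the DH model), and infarcts were identified by eye and dissected. Both regions came from mice with stroke, so the contralateral cortex is not tissue from an animal without one. The labels number the samples within each region but do not say which came from the same mouse, and p-values measure only the spread between these samples. Gene counts totaled 11943570 to 19933962 per library. Values below are counts per 1000000 counts (CPM) scaled by the trimmed mean of M-values (TMM), in the order of libraries 1, 2 and 3 of each region, and levels of different genes are compared only as CPM per kb of exon.

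The regions differed in cell type markers. All 10 neuron markers were downregulated, and their summed level was 876, 1189 and 2489.6 CPM in the infarcts and 12018, 12081 and 12733 CPM in the contralateral cortices, which put infarcts 1, 2 and 3 at 7.13%, 9.69% and 20.3% of the contralateral mean. Macrophage (8 of 8 upregulated) and fibroblast and meningeal (6 of 6) markers summed to 9522 to 13996 CPM and 6927 to 8680.3 CPM in infarcts and to 36.8 to 53.3 CPM and 146 to 189 CPM in contralateral cortices. Endothelial (3 of 7 upregulated) and mural (4 of 5) markers summed to 354 to 505 CPM and 459 to 669.6 CPM in infarcts and to 232 to 255 CPM and 201 to 242 CPM in contralateral cortices. Oligodendrocyte (3 of 8 upregulated) and microglial (3 of 6) markers summed in infarcts to 177% to 289.6% and 284% to 295% of the contralateral mean. Astrocyte markers (3 of 7 upregulated, 1 downregulated) summed to 38.7% to 55.9%, but this rests on the glutamate transporter gene *Slc1a2* (-2.07), and without it, a check chosen after the values were seen, they summed to 232% to 295%, with *Gfap* at 4.81. Oligodendrocyte precursor markers (2 of 5 upregulated) summed to 225% to 319%, most of it *Pdgfra*, which is also on the fibroblast list, and without it to 84.5% to 131.8%, with infarcts at 61.4 to 95.8 CPM and contralateral cortices at 53.9 to 89.0 CPM. B and plasma cell (5 of 5 upregulated) and T cell (5 of 5) markers summed to 249 to 2255 CPM and 20.9 to 82.4 CPM in infarcts and to 1.25 to 3.88 CPM and 0.0923 to 0.522 CPM in contralateral cortices, where the T cell genes *Cd2* and *Cd8a* had no count. Choroid plexus and ependymal markers (3 of 5 upregulated) summed to 16.0 to 34.7 CPM and 7.26 to 9.41 CPM, with *Ttr* and *Ccdc153* at 0 in contralateral cortices. Among the infarcts, 7 of the 12 summed lists (oligodendrocyte precursor, microglial, macrophage, B and plasma cell, T cell, endothelial and mural) were highest in infarct 1 and lowest in infarct 3, and 3 (neuron, oligodendrocyte and astrocyte) were highest in infarct 3 and lowest in infarct 1. In such bulk tissue, fewer cells of a type and less RNA per cell cannot be told apart, and the part of these cell types in the values below was not tested.

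Of the 56 guidance genes tested, 11 were upregulated and 17 downregulated in infarcts (edgeR quasi-likelihood test, Benjamini-Hochberg adjusted p under 0.05 and fold change above 2). The upregulated share of 19.6% stands beside 25.7% of all genes tested, and the downregulated share of 30.4% beside 20.9%. The median log2 fold change of the guidance genes was -0.23, against 0.03 for all genes tested. A further 12 genes passed the adjusted p within a 2-fold change. Of these, *Plxna1*, *Plxnc1*, *Robo1*, *Slit2*, *Sema3g*, *Sema4c* and *Sema6d* were higher in infarcts, and *Sema3a*, *Plxna3*, *Ephb1*, *Ephb3* and *Slit3* were lower. The other 16 had an adjusted p of 0.05 or more: *Efna2*, *Efnb3*, *Epha6*, *Ephb2*, *Plxna2*, *Plxnb1*, *Plxnd1*, *Sema3c*, *Sema3e*, *Sema3f*, *Sema4a*, *Sema4b*, *Sema4g*, *Sema6a*, *Sema6c* and *Slit1*. Infarct and contralateral values were free of overlap for 42 of the 56 genes (75.0%), 19 with the infarcts higher and 23 with the infarcts lower, beside 72.3% of all genes tested.

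Ligands and receptors each split between the directions. Among the 30 ligands tested, 5 were upregulated (16.7%) and 8 downregulated (26.7%), and among the 26 receptors, 6 (23.1%) and 9 (34.6%). Among classes with at least 4 genes tested, the EphA receptors had the largest downregulated share, with 5 of 8 genes and a median log2 fold change of -2.04, although *Epha2* and *Epha3* were upregulated. Of the 3 B plexins, 2 were upregulated and none was downregulated. These are counts within small classes and were not tested as sets. They stand beside 25.7% upregulated and 20.9% downregulated of all genes tested.

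**Figure D1:**
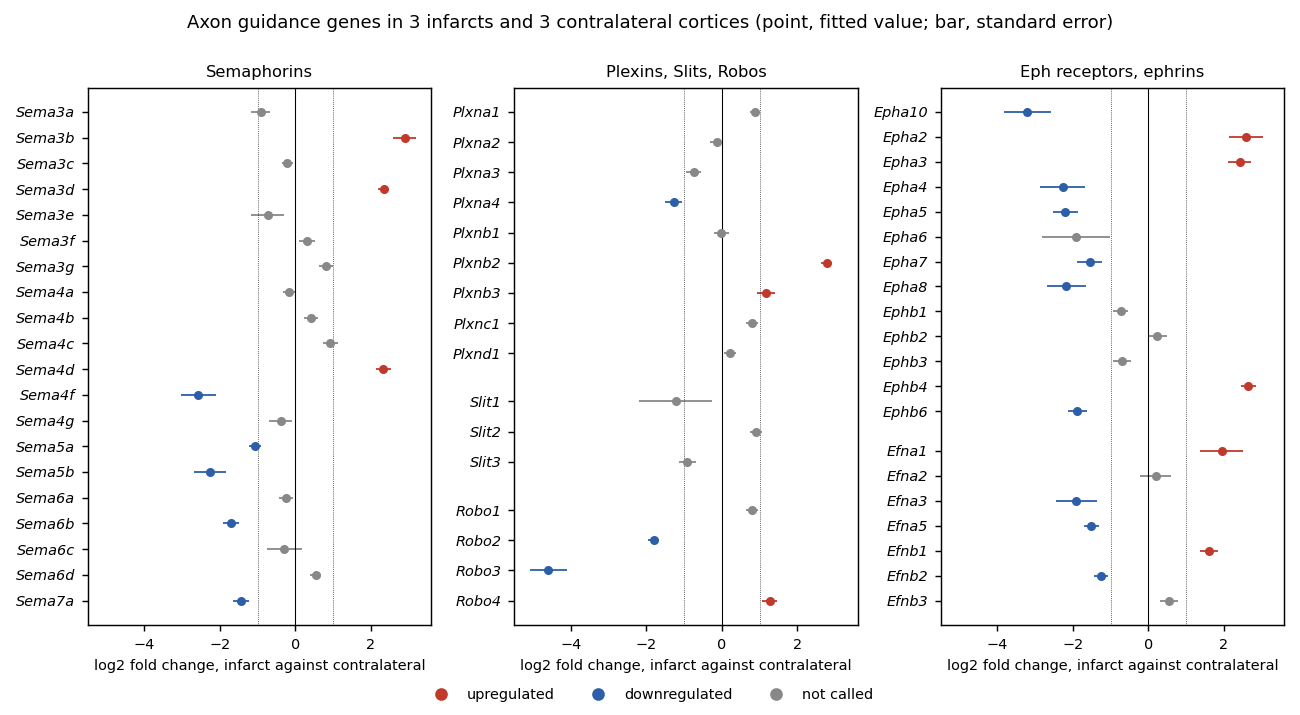
Log2 fold change of infarct against contralateral cortex (x axis) for the 56 guidance genes tested, grouped by family, with bars for the standard error, dotted lines at a 2-fold change and color for the call. The 11 upregulated genes lie between 1.17 and 2.89 and the 17 downregulated genes between -4.59 and -1.06; *Slit1* and *Epha6* have the widest bars.

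Summed over members, per kb of exon, the families changed in composition as well as in level. Plexins together stood at 141 ± 3.80 CPM per kb in infarcts and 90.3 ± 2.69 in contralateral cortices (mean ± SD, n = 3), a ratio of 1.56. Eph receptors stood at 43.1 ± 14.4 CPM per kb in infarcts and 104 ± 8.79 in contralateral cortices, a ratio of 0.414, and Robos at a ratio of 0.597. The semaphorin ratio was 0.771, that of ephrins 0.847 and that of Slits 0.872. Ephrins and Slits stood at 38.1 ± 6.32 and 15.6 ± 3.46 CPM per kb in infarcts, and at 45.0 ± 0.309 and 17.9 ± 0.723 in contralateral cortices. In both families infarct 3 (45.31 and 19.3) was above every contralateral cortex (at most 45.28 and 18.7), so neither was lower in all infarcts. With library totals in place of TMM, the Slit ratio turned to 1.01, and the ephrin ratio was 0.977, still under 1. These sums are descriptions with no test.

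Most families were led by different genes in the 2 regions. In contralateral cortices, *Epha4* made up 47.9% ± 4.04 (SD, n = 3) of Eph receptor expression, *Robo2* 67.8% ± 2.25 of Robo, *Efna5* 41.2% ± 4.96 of ephrin, *Sema7a* 27.0% ± 2.44 of semaphorin and *Plxnd1* 23.4% ± 1.99 of plexin expression. In infarcts, *Plxnb2* led the plexins with 32.6% ± 0.666, up from 7.42% ± 0.668. *Efnb3* led the ephrins with 52.7% ± 9.29, *Slit2* the Slits with 63.4% ± 18.8 and *Robo1* the Robos with 35.1% ± 4.56. *Sema4d* had the highest mean share of semaphorins, 15.7% ± 4.71, but led only in infarct 1 (21.0%). *Sema7a* (12.8% ± 2.83) was above it in infarct 2 (14.5% against 14.2%) and infarct 3 (14.3% against 11.9%). *Robo1*, *Robo2* (32.6% ± 5.57) and *Robo4* (31.4% ± 2.63) were within their spread of each other in infarcts. Among contralateral Slits, *Slit3* (36.0% ± 1.30) and *Slit1* (35.6% ± 3.58) were likewise within their spread. *Epha4* still had the highest mean share of Eph receptors in infarcts, 21.4% ± 12.8, but *Epha3* (18.9% ± 9.58) and *Ephb4* (18.8% ± 7.47) lay within that spread, from 1.40% ± 0.358 and 1.15% ± 0.229 in contralateral cortices. Per kb of the longest transcript, *Plxna2* led the contralateral plexins and *Slit2* the contralateral Slits, and the other leading genes were the same.

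**Figure D2:**
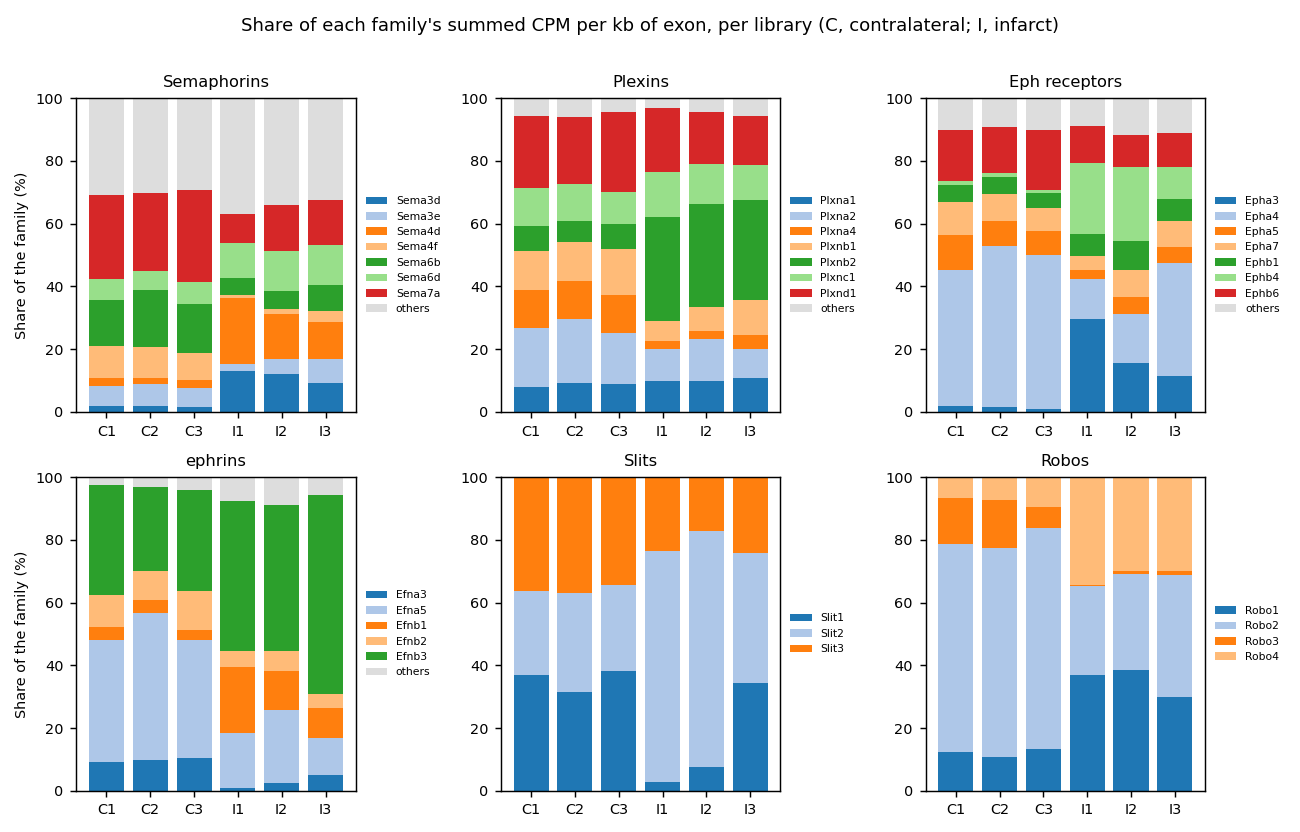
Share of each family's summed level (y axis, percent of the summed CPM per kb of exon) in contralateral cortices C1 to C3 and infarcts I1 to I3, with one color per gene and members that stay under 7% in every library pooled as others in the larger families. *Plxnb2* takes 7.42% of plexin expression on average in contralateral cortices and 32.6% in infarcts, and the *Slit1* share in infarct 3 is near that of the contralateral cortices.

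Of 20 semaphorins, 3 were upregulated (15.0%, beside 25.7% of all genes tested) and 5 downregulated (25.0%, beside 20.9%), and the classes differed. With library totals in place of TMM, which moved the median over all genes from 0.03 to 0.23 (log2), the family split was 5 upregulated and 4 downregulated. Secreted class 3 semaphorins, which signal through neuropilin and plexin complexes, had 2 of 7 members upregulated (28.6%, beside 25.7% of all genes) and none downregulated. *Sema3b* (chromosome 9, 107597674 to 107609229, GRCm38) was measured at 10.7, 8.96 and 12.2 CPM in the infarcts and 1.78, 0.912 and 1.57 CPM in the contralateral cortices. Every infarct value exceeded every contralateral value, and the fold change on the log2 scale was 2.89 ± 0.30 (SE, edgeR adjusted p = 2.2e-05). *Sema3d* (chromosome 5, 12383385 to 12588948) stood at 109, 104 and 86.2 CPM in the infarcts and 20.3, 20.7 and 17.9 CPM in the contralateral cortices, and the regions again did not overlap. Per kb of exon, *Sema3d* reached 11.6 CPM in infarcts and *Sema3b* 2.22. The log2 fold change of *Sema3d* was 2.34 ± 0.15 (SE, edgeR adjusted p = 1.41e-06). The remaining class 3 genes did not reach a 2-fold rise or fall. *Sema3g*, a semaphorin of arterial endothelium, had 0.81 (edgeR adjusted p = 0.00305), *Sema3f* 0.30 and *Sema3c* -0.21. *Sema3a*, the classic growth cone-collapsing semaphorin, stood at 54.1, 49.3 and 25.9 CPM in the infarcts and 71.2, 83.0 and 89.9 CPM in the contralateral cortices, lower in each infarct, with a log2 fold change of -0.92 ± 0.25 (SE, edgeR adjusted p = 0.0111). Its fold change passed 2 when infarct 1 (-1.09), infarct 2 (-1.01) or contralateral cortex 1 (-1.02) was left out, and was -0.64 without infarct 3, the lowest of the infarcts. *Sema3e*, a ligand that can act on plexin D1 without neuropilin, ranged from 19.6 to 79.7 CPM among infarcts and overlapped the contralateral values of 78.9, 83.9 and 76.7 CPM (-0.73 ± 0.44, SE, edgeR adjusted p = 0.186).

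Class 4 semaphorins are transmembrane ligands with members on neurons and on immune cells. Of 6, 1 was upregulated (16.7%, beside 25.7% of all genes tested) and 1 downregulated (16.7%, beside 20.9%). *Sema4d* (chromosome 13, 51685529 to 51793747), also known as CD100, had the highest mean level per kb of exon among infarct semaphorins, though it led only in infarct 1. It stood at 155, 109 and 101 CPM in the infarcts and 25.9, 19.9 and 26.7 CPM in the contralateral cortices. It rose in all infarcts, most in infarct 1, with a log2 fold change of 2.33 ± 0.20 (SE, edgeR adjusted p = 7.94e-06). In the same libraries the summed B and plasma cell, T cell, macrophage, microglial, endothelial, mural and oligodendrocyte precursor markers were also highest in infarct 1, and oligodendrocyte markers were lowest there (4181 CPM, against 4833 and 6832 CPM in infarcts 2 and 3). *Sema4f* (chromosome 6, 82911885 to 82939769) had the largest fall among ligands: 5.02, 7.93 and 20.7 CPM in the infarcts and 71.0, 69.3 and 61.1 CPM in the contralateral cortices. The regions did not overlap, infarct 3 was the highest of the infarcts, and the log2 fold change was -2.57 ± 0.46 (SE, edgeR adjusted p = 0.00259), or -3.36 without infarct 3. *Sema4c* was higher in infarcts within 2-fold (0.92, edgeR adjusted p = 0.00232), and passed 2-fold without contralateral cortex 2 (1.04). *Sema4a* (-0.16), *Sema4b* (0.42) and *Sema4g* (-0.39) did not pass the adjusted p.

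Semaphorins of classes 5 to 7 held 4 of the 5 downregulated genes of the family and none that was upregulated. The classes are small: 2 of 2 genes fell in class 5, 1 of 4 (25.0%) in class 6 and the 1 gene of class 7. Over all genes tested, 20.9% were downregulated and 25.7% upregulated. Class 5 semaphorins carry thrombospondin repeats, and both fell. *Sema5b* (chromosome 16, 35541145 to 35664732) was measured at 2.23, 4.33 and 7.85 CPM in the infarcts and 31.7, 17.1 and 20.4 CPM in the contralateral cortices, for a fitted log2 fold change of -2.25 ± 0.43 (SE, edgeR adjusted p = 0.00215). *Sema5a* also fell (-1.06 ± 0.16, SE, edgeR adjusted p = 0.000269) and was not called when infarct 2 was left out (-0.92) or when library totals replaced TMM (-0.86). In class 6, whose members are transmembrane ligands of A plexins, *Sema6b* fell (-1.70 ± 0.21, SE, edgeR adjusted p = 8.18e-05), whereas *Sema6d* was higher within 2-fold (0.54, edgeR adjusted p = 0.00893) and *Sema6a* (-0.25) and *Sema6c* (-0.29) did not pass. *Sema7a* (chromosome 9, 57940112 to 57962865), a membrane-anchored ligand of plexin C1 and integrins, was the most abundant semaphorin of the contralateral cortex. It stood at 30.3, 47.9 and 52.1 CPM in the infarcts and 116, 106 and 132 CPM in the contralateral cortices, without overlap, and its log2 fold change was -1.44 ± 0.20 (SE, edgeR adjusted p = 0.000198).

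**Figure D3:**
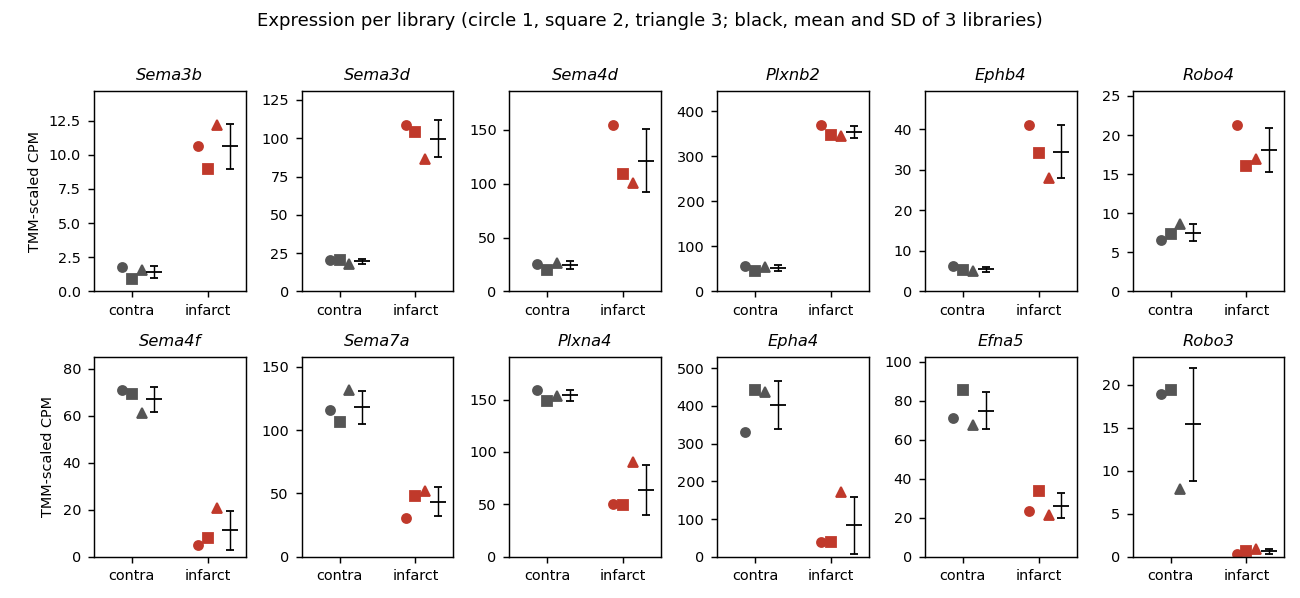
TMM-scaled CPM (y axis, from 0) of 12 guidance genes in each contralateral cortex and each infarct, with circles, squares and triangles for libraries 1, 2 and 3 and black marks for mean and SD of the 3. For all 12 genes the regions do not overlap, as for every called guidance gene. *Plxnb2* is tight in both regions. *Epha4*, *Sema4f* and *Plxna4* are highest among infarcts in infarct 3, and *Robo3* is lowest among contralateral cortices in library 3.

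Promoter sequence is shown for the ligand with the largest rise and the ligand with the largest fall among members that had a single RefSeq window, from 250 bases before to 50 bases after the start of the transcript (GRCm38.p6, written along the gene's strand). Capitals would mark the GC box, GGGCGG or its complement CCGCCC, which neither window contains. The 2 windows hold 8 and 7 CpG dinucleotides.
Sema3d (chr5:12382916-12383215, strand +): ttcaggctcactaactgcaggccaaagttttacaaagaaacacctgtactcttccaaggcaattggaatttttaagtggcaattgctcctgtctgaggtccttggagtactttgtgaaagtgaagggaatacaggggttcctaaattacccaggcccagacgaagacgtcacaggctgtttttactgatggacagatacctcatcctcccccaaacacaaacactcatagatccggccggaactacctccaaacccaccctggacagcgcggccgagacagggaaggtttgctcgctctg
Sema4f (chr6:82939720-82940019, strand -): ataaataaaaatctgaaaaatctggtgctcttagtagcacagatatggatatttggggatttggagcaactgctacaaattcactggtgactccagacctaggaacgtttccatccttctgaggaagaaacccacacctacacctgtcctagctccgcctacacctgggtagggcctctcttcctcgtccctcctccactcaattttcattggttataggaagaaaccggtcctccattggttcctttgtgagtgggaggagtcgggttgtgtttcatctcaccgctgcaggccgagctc

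Plexins, the semaphorin receptors, had 2 of 9 genes upregulated (22.2%, beside 25.7% of all genes tested) and 1 downregulated (11.1%, beside 20.9%). *Plxnb2* (chromosome 15, 89155549 to 89180788), a receptor for class 4 semaphorins, was measured at 371, 347 and 345 CPM in the infarcts and 55.4, 44.9 and 55.1 CPM in the contralateral cortices. All infarcts lay far above all contralateral cortices with little spread in either region, and the log2 fold change of 2.77 ± 0.14 (SE, edgeR adjusted p = 5.01e-07) was the steepest rise among receptors. At 45.9 CPM per kb of exon it was also the most abundant guidance gene of the infarcts, from 6.71 CPM per kb in contralateral cortices. *Plxnb3* (chromosome X, 73757090 to 73772514), the plexin that binds *Sema5a*, stood at 22.2, 27.1 and 41.0 CPM in the infarcts and 14.7, 14.8 and 10.5 CPM in the contralateral cortices. It was higher in every infarct and highest in infarct 3, with a log2 fold change of 1.17 ± 0.25 (SE, edgeR adjusted p = 0.00241), which was 0.89 without infarct 3 and then not called. Summed neuron, oligodendrocyte and astrocyte markers had the same order among infarcts. *Plxnb1*, the third B plexin, had a log2 fold change of -0.02 (edgeR adjusted p = 0.953) and overlapped between regions.

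A plexins are the usual signaling partners of neuropilins and bind class 6 semaphorins directly. *Plxna4* (chromosome 6, 32144268 to 32588192) was the only plexin downregulated, at 50.7, 49.5 and 90.7 CPM in the infarcts and 159, 149 and 154 CPM in the contralateral cortices. No infarct reached a contralateral value, infarct 3 was closest, and the log2 fold change was -1.27 ± 0.23 (SE, edgeR adjusted p = 0.000943). *Plxna1* was higher within 2-fold (0.88, edgeR adjusted p = 0.000212), *Plxna3* lower (-0.75, edgeR adjusted p = 0.00729), and *Plxna2* (-0.13) did not pass. *Plxnc1*, the *Sema7a* receptor, was higher within 2-fold (0.80 ± 0.15, SE, edgeR adjusted p = 0.00116). *Plxnd1*, a plexin of blood vessels, stood at 214, 167 and 158 CPM in the infarcts and 156, 138 and 169 CPM in the contralateral cortices and overlapped between regions (0.22 ± 0.16, SE, edgeR adjusted p = 0.266).

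Ephrins (7 of 8 genes tested) had 2 genes upregulated (28.6%, beside 25.7% of all genes tested) and 3 downregulated (42.9%, beside 20.9%). The A and B classes each split. *Efna5* (chromosome 17, 62604184 to 62881317), a lipid-anchored ligand of EphA receptors, led the contralateral ephrins per kb of exon and stood at 23.6, 33.5 and 21.3 CPM in the infarcts and 71.1, 85.6 and 67.7 CPM in the contralateral cortices. It fell in every infarct, with a log2 fold change of -1.52 ± 0.20 (SE, edgeR adjusted p = 0.000109), and unlike most downregulated members it was lowest in infarct 3. *Efna3* (chromosome 3, 89313899 to 89322965) was measured at 0.797, 2.06 and 5.60 CPM in the infarcts and 9.92, 10.9 and 11.4 CPM in the contralateral cortices. Infarct 3 kept 52.1% of the contralateral mean and infarct 1 7.42%, and the log2 fold change was -1.91 ± 0.54 (SE, edgeR adjusted p = 0.0157), which lost its call without infarct 2 (edgeR adjusted p = 0.0636) or contralateral cortex 3 (0.0502), or with no filter on low counts (0.0715). Without infarct 3 it was -2.87 (edgeR adjusted p = 3.22e-05). *Efna1* (chromosome 3, 89271733 to 89281142) rose from a low level: 2.39, 2.94 and 1.91 CPM in the infarcts and 1.04, 0.130 and 0.646 CPM in the contralateral cortices, on 30, 40 and 28 counts against 20, 2 and 7. The regions did not overlap, and the log2 fold change was 1.94 ± 0.57 (SE, edgeR adjusted p = 0.0125), or 2.70 without contralateral cortex 1. *Efna2* overlapped (0.19), and *Efna4* did not pass the filter, with a highest value of 0.717 CPM, in infarct 1.

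Among B ephrins, transmembrane ligands that can also signal into the cell that bears them, *Efnb1* (chromosome X, 99136130 to 99148991) rose: 24.1, 15.6 and 14.9 CPM in the infarcts and 6.42, 6.45 and 5.08 CPM in the contralateral cortices. Infarct 1 was the highest, no values overlapped, and the log2 fold change was 1.60 ± 0.24 (SE, edgeR adjusted p = 0.000259). *Efnb2*, the arterial ephrin and also a ligand of neuronal Eph receptors, fell: 11.5, 15.0 and 14.5 CPM in the infarcts and 31.3, 28.2 and 38.2 CPM in the contralateral cortices, for a fitted log2 fold change of -1.25 ± 0.19 (SE, edgeR adjusted p = 0.000257). *Efnb3*, a myelin-associated ephrin that blocks axon growth through EphA4, led the ephrins of the infarcts per kb of exon and stood at 51.0, 53.0 and 91.4 CPM in the infarcts and 50.0, 38.5 and 45.6 CPM in the contralateral cortices. It was higher in each infarct than in any contralateral cortex, narrowly so for infarct 1, and highest in infarct 3, where summed neuron, oligodendrocyte, astrocyte, and choroid plexus and ependymal markers also peaked among infarcts, and its log2 fold change of 0.54 ± 0.23 (SE, edgeR adjusted p = 0.067) did not pass.

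Eph receptors (13 of 14 genes tested) had 3 genes upregulated (23.1%, beside 25.7% of all genes tested) and 6 downregulated (46.2%, beside 20.9%). Of the EphA receptors, 5 of 8 fell. *Epha4* (chromosome 1, 77367185 to 77515088), which binds ephrins of both classes, was the most abundant guidance gene of the contralateral cortex at 50.1 CPM per kb of exon. It was measured at 39.9, 38.7 and 171 CPM in the infarcts and 329.8, 443 and 437 CPM in the contralateral cortices. Infarcts 1 and 2 held 9.90% and 9.60% of the contralateral mean and infarct 3 42.5%. The log2 fold change was -2.27 ± 0.60 (SE, edgeR adjusted p = 0.0177), and the call was lost without infarct 1 (-1.92, adjusted p = 0.0652 in edgeR) or contralateral cortex 3 (-2.21, adjusted p = 0.0509), or with no filter on low counts (adjusted p = 0.0861). Without infarct 3 it was -3.34 (edgeR adjusted p = 4.76e-08). *Epha10* (chromosome 4, 124880899 to 124917800), an EphA receptor without kinase activity, had the steepest fall of the family: 0.637, 1.10 and 5.05 CPM in the infarcts and 22.4, 22.3 and 19.4 CPM in the contralateral cortices. All infarct values lay under all contralateral values, for a log2 fold change of -3.21 ± 0.62 (SE, edgeR adjusted p = 0.00318) that was -4.58 without infarct 3. *Epha5* (-2.20), *Epha8* (-2.17) and *Epha7* (-1.56), all EphA receptors of neurons, fell as well, *Epha8* from contralateral values of only 1.36 to 2.86 CPM. *Epha6* stood at 1.83, 0.587 and 11.8 CPM in the infarcts and 17.5, 14.8 and 22.0 CPM in the contralateral cortices, and its log2 fold change of -1.91 ± 0.90 (SE, edgeR adjusted p = 0.112) became -3.89 (edgeR adjusted p = 5.48e-06) without infarct 3 and -2.83 (adjusted p = 0.0173) in limma voom.

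The Eph receptor genes that rose stood at 0.0877 to 1.44 CPM per kb in contralateral cortices, far under *Epha4*. *Ephb4* (chromosome 5, 137350109 to 137378669), the receptor of venous endothelium, was measured at 41.1, 34.1 and 28.0 CPM in the infarcts and 6.16, 5.21 and 5.08 CPM in the contralateral cortices. The regions were far apart, infarct 1 was highest, and the log2 fold change was 2.64 ± 0.20 (SE, edgeR adjusted p = 3.49e-06). Its ligand *Efnb2* fell in the same libraries, and summed endothelial markers stood at 205, 165 and 144% of the contralateral mean in the infarcts, where *Ephb4* stood at 749.6%, 623% and 510.4%, an order it shares with 7 of the 12 summed marker lists. *Epha2* (chromosome 4, 141301240 to 141329384), a receptor of *Efna1* found on epithelia and vessels, rose from 0.627, 0.326 and 0.277 CPM to 3.03, 2.57 and 2.25 CPM without overlap, a log2 fold change of 2.58 ± 0.45 (SE, edgeR adjusted p = 0.000515) that rests on 12, 5 and 3 and 38, 35 and 33 counts. *Epha3* reached 101, 42.7 and 58.4 CPM, from 14.2, 13.5 and 9.87 CPM, with a log2 fold change of 2.42 ± 0.31 (SE, edgeR adjusted p = 0.000195). Of the other EphB receptors, the kinase-inactive *Ephb6* fell (-1.88 ± 0.24, SE, edgeR adjusted p = 0.000125), *Ephb1* (-0.74) and *Ephb3* (-0.70) were lower within 2-fold, and *Ephb2* (0.23) did not pass. *Epha1* did not pass the filter, with values from 0.130 to 0.797 CPM. The *Ephb4* promoter window, shown because this receptor rose most among those with a single window, carries 4 GC boxes, counted over both strands and written in capitals.
Ephb4 (chr5:137349859-137350158, strand +): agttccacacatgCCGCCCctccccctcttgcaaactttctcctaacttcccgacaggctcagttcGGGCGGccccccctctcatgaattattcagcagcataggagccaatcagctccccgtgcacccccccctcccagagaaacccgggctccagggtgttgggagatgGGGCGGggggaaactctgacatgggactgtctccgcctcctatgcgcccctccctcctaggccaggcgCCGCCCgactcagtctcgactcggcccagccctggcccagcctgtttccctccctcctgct

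No Slit was upregulated or downregulated with all libraries in the fit. *Slit2* (chromosome 5, 47983138 to 48307733) led the Slits of the infarcts per kb of exon and stood at 234, 285 and 205 CPM in the infarcts and 120.1, 138 and 129 CPM in the contralateral cortices. It was higher in all infarcts, with a log2 fold change of 0.90 ± 0.16 (SE, edgeR adjusted p = 0.000795), and passed 2-fold without infarct 3 (1.02). *Slit3* (chromosome 11, 35121224 to 35708507) stood at 18.0, 15.6 and 28.3 CPM in the infarcts and 38.7, 39.1 and 39.2 CPM in the contralateral cortices, lower in all infarcts, with a log2 fold change of -0.92 ± 0.22 (SE, edgeR adjusted p = 0.00469) that passed 2-fold without infarct 3 (-1.20). *Slit1*, a Slit of neurons, stood at 2.15, 6.76 and 39.2 CPM in the infarcts and 38.5, 32.4 and 42.5 CPM in the contralateral cortices. Infarct 3 alone lay inside the contralateral range, and the log2 fold change of -1.23 ± 0.95 (SE, edgeR adjusted p = 0.309) became -3.05 (edgeR adjusted p = 8.87e-05) without it.

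All 4 Robos passed the adjusted p. *Robo2* (chromosome 16, 73891839 to 74411825), the main Robo of the contralateral cortex, stood at 55.9, 52.9 and 70.5 CPM in the infarcts and 209, 213 and 204 CPM in the contralateral cortices. The regions lay far apart with little spread, and the log2 fold change was -1.80 ± 0.15 (SE, edgeR adjusted p = 6.08e-06). *Robo1* (chromosome 16, 72308306 to 73046095) was higher in infarcts within 2-fold, at 71.3, 64.4 and 52.8 CPM in the infarcts and 38.1, 33.0 and 37.8 CPM in the contralateral cortices, for a fitted log2 fold change of 0.79 ± 0.16 (SE, edgeR adjusted p = 0.00179). *Robo3* (chromosome 9, 37415669 to 37433246), a divergent Robo known for its role at the midline, had the largest fall of all 56 genes: 0.319, 0.661 and 0.887 CPM in the infarcts and 18.9, 19.4 and 7.84 CPM in the contralateral cortices, on 4, 9 and 13 counts against 362, 298 and 85. Contralateral cortex 3 was well under the other two, all infarcts were lower still, and the log2 fold change was -4.59 ± 0.49 (SE, edgeR adjusted p = 2.83e-05). *Robo4* (chromosome 9, 37401897 to 37415115), the endothelial Robo, rose: 21.3, 16.0 and 17.0 CPM in the infarcts and 6.53, 7.36 and 8.68 CPM in the contralateral cortices, without overlap, with a log2 fold change of 1.27 ± 0.20 (SE, edgeR adjusted p = 0.000367) and infarcts at 284%, 213% and 226% of the contralateral mean.

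*Robo4* and *Robo3* are neighbors, transcribed toward each other on chromosome 9 with 553 bases between their annotated ends, and were called in opposite directions. The *Robo3* promoter window is shown because this receptor fell most among those with a single window, and the *Robo4* window because these genes are the closest pair of members. The windows differ in base composition. The *Robo3* window holds 17 CpG dinucleotides at 63.3% GC and 3 GC boxes, a pair of them overlapping, in capitals. The *Robo4* window holds 2 CpG dinucleotides at 50.3% GC and no GC box.
Robo3 (chr9:37433126-37433425, strand -): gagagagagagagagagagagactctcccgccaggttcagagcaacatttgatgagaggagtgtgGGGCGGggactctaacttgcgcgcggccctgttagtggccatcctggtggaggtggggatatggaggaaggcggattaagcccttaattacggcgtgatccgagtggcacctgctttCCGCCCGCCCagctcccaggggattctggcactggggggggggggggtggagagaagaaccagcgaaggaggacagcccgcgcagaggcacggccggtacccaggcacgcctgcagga
Robo4 (chr9:37401722-37402021, strand +): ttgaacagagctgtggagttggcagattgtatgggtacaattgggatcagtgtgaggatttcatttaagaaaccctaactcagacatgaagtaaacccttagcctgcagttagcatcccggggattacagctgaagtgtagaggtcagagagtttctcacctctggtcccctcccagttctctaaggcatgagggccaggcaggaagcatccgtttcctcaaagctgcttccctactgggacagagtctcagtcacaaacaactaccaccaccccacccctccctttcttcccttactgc

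Infarct 3 stood apart from the other infarcts across the downregulated guidance genes. It was the highest infarct for 14 of the 17 (all but *Efna5*, *Efnb2* and *Epha8*) and for 2 of the 11 upregulated genes, *Sema3b* and *Plxnb3*. Over all genes tested, it was the highest infarct for 75.5% of downregulated and 11.8% of upregulated genes, so the guidance genes share this with the rest of the library. Summed neuron markers stood at 7.13%, 9.69% and 20.3% of the contralateral mean in infarcts 1, 2 and 3. Against these, *Epha4* stood at 9.90%, 9.60% and 42.5%, *Epha6* at 10.1%, 3.25% and 65.2%, *Slit1* at 5.69%, 17.9% and 104% and *Sema3e* at 24.5%, 56.6% and 99.9%. *Robo3*, at 2.07%, 4.30% and 5.77%, was below the neuron markers in each infarct. *Robo2*, at 26.8%, 25.3% and 33.8%, and *Efna5*, at 31.5%, 44.8% and 28.5%, were above the summed neuron markers in each infarct, though not above every single marker. Without infarct 3, 11 guidance genes were upregulated and 21 downregulated: *Epha6*, *Sema3e*, *Slit1* and *Slit3* (-1.28 for *Sema3e*) joined those that fell, *Slit2* those that rose, and *Plxnb3* left. Other guidance genes kept their call in that comparison.

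**Figure D4:**
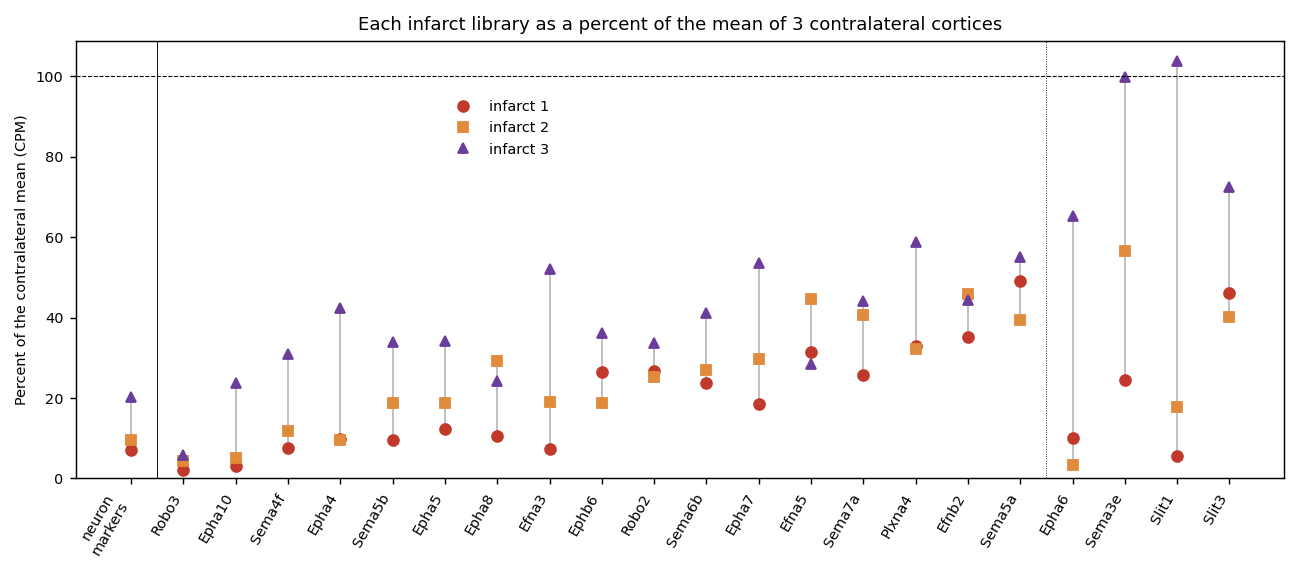
Each infarct library as a percent of the mean of the 3 contralateral cortices (y axis, from CPM; dashed line at 100%) for the summed neuron markers, the 17 downregulated guidance genes in order of log2 fold change, and, right of the dotted line, the 4 genes that became downregulated without infarct 3. Infarct 3 (triangles) tops 14 of the 17 and reaches 104% for *Slit1*, beside 20.3% for neuron markers.

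Ligands and receptors that bind each other were set side by side in 26 textbook pairs, several of which share a partner. Both partners fell in 4 pairs: *Sema6b* with *Plxna4*, *Efna5* with *Epha4*, *Efna5* with *Epha5*, and *Efna3* with *Epha4*. Both rose in 2 pairs, *Sema4d* with *Plxnb2* and *Efna1* with *Epha2*, and these are at very different levels. *Sema4d* and *Plxnb2* stood at 15.8 and 45.9 CPM per kb in infarcts, and *Efna1* and *Epha2* at 1.32 and 0.560. The calls were opposite in 2 pairs, in both of which the ligand fell and the receptor rose: *Efnb2* (-1.25) with *Ephb4* (2.64), and *Sema5a* (-1.06) with *Plxnb3* (1.17). In 9 pairs 1 partner was called and in 9 neither was. *Sema7a* fell while its receptor *Plxnc1* was higher within 2-fold, and *Efnb3* (0.54) was not called while its receptor *Epha4* fell. Gene expression in bulk tissue does not show whether both partners were in adjacent cells.

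**Figure D5:**
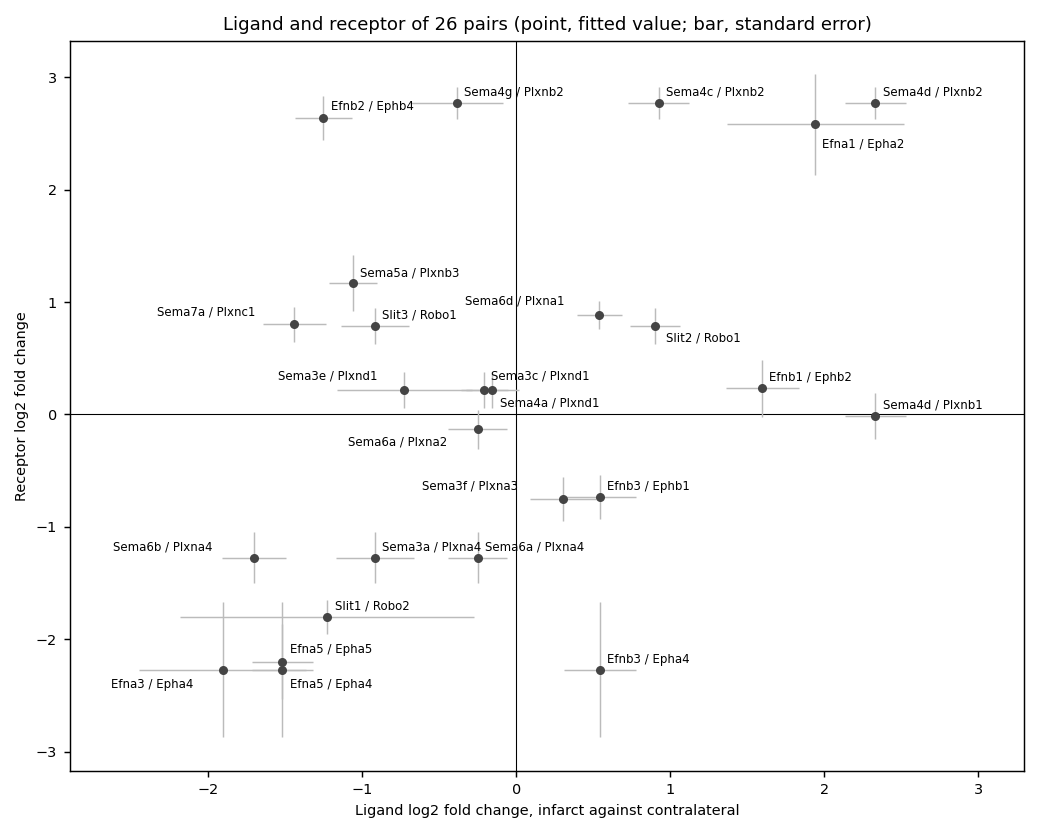
Log2 fold change of the ligand (x axis) and the receptor (y axis) of the 26 pairs, with bars for the standard error of each; points that share a gene line up. *Sema4d* with *Plxnb2* (2.33 and 2.77) and *Efna1* with *Epha2* (1.94 and 2.58) lie at the upper right, and *Efnb2* with *Ephb4* (-1.25 and 2.64) at the upper left.

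Several members lie near each other, and neighbors often had different calls. On chromosome 3, *Efna1* (upregulated) and *Efna3* (downregulated) are 32.8 kb apart, with *Efna4* another 10.4 kb beyond *Efna3*. On chromosome 9, *Sema3b* (upregulated) is 72.3 kb from *Sema3f* (0.30), and on chromosome 5, *Sema3d* (upregulated) is 536 kb from *Sema3a* (-0.92), which is 423 kb from *Sema3e*. *Robo1* and *Robo2*, with 0.79 and -1.80, are 846 kb apart on chromosome 16, and *Ephb2* (0.23) lies 93.4 kb from *Epha8* (-2.17) on chromosome 4. *Plxnb3* and *Plxna3* (1.17 and -0.75) are 557 kb apart on chromosome X. Some members share exon bases with a gene on the opposite strand, which matters because the strand setting of the counting was not given in the sources used here: 14.1% of *Efna3* exon bases, 10.7% of *Plxna1* and 7.27% of *Sema4c*. For the other tested members the shared part was at most 2.68%.

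RefSeq promoter windows were found for 51 of the 58 genes, 67 windows of 300 bases in all. The GC box (GGGCGG, both strands) occurred in 70.1% of them, beside 35.7% of all 32851 windows. A TATA box (TATAAA, both strands) occurred in 2.99% beside 13.6%, and an AP-1 motif (TGANTCA, both strands) in 4.48% beside 7.81%. The median window held 18 CpG dinucleotides, beside 7 over all. Among the 14 windows of upregulated members the median was 12, and among the 21 of downregulated members it was 23. The 32851 windows cover 27025 genes and were not limited to protein-coding or tested genes, so unlike sets are compared. These are letter matches, described without a test.

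The other genes of these pathways, a list of 70 of which 69 were in the count tables and all 69 were tested, had 17 upregulated (24.6%, beside 25.7% of all genes) and 25 downregulated (36.2%, beside 20.9%). *Ntn3* was not analysed here. Both neuropilins, the coreceptors of class 3 semaphorins, rose. *Nrp1* stood at 854 ± 190.2 CPM in infarcts and 71.4 ± 8.97 in contralateral cortices (SD, n = 3), a log2 fold change of 3.58 ± 0.20 (SE, edgeR adjusted p = 8.27e-07), and *Nrp2* had a log2 fold change of 3.04 ± 0.21 (SE, edgeR adjusted p = 2.4e-06). Among 14 netrin pathway genes, 3 were upregulated (21.4%) and 6 downregulated (42.9%). *Draxin*, a secreted repellent that binds the netrin receptor DCC, rose from 0.209, 0.130 and 0 CPM to 11.0, 11.5 and 7.10 CPM, and *Ntn1* (1.72) and *Ntn4* (1.13) rose too. The 3 netrin receptor genes that fell were *Unc5d* at 8.12, 7.12 and 9.83 CPM in the infarcts and 166, 192 and 177 CPM in the contralateral cortices (-4.41 ± 0.16, SE, edgeR adjusted p = 1.64e-07), *Unc5a* (-2.25) and *Dcc* (-2.07). The netrin-G genes *Ntng1* (-3.31) and *Ntng2* (-1.64) and the netrin gene *Ntn5* (-1.72) also fell.

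Of 32 signal transducers of guidance receptors, 7 were upregulated (21.9%, beside 25.7% of all genes tested) and 13 downregulated (40.6%, beside 20.9%). Those that rose most were *Fes* (4.33), a tyrosine kinase of plexin signaling that is also abundant in myeloid cells, the guanine nucleotide exchange factor *Vav2* (2.63), and *Dpysl3* (2.29), a collapsin response mediator. Those that fell most were *Ngef* (-3.23), an ephexin that acts downstream of EphA receptors, *Chn1* (-2.88), the chimaerin of EphA4 signaling, and the kinase *Pak1* (-2.82). Among 13 alternative receptors and modifying proteins, 5 rose (38.5%) and 1 fell (7.69%). *Cd72* (4.29), a *Sema4d* receptor of B cells, rose most, followed by *Itgb1* (2.94), the β1 subunit of the *Sema7a*-binding integrin, and *Sdc3* (1.54), and *Flrt1* (-1.51) fell. Of the 8 myelin-derived inhibitors and their receptors, none was upregulated (beside 25.7% of all genes tested) and 5 fell (62.5%, beside 20.9%). On the receptor side, those that fell were *Lingo1* (-3.49), which encodes a coreceptor of the Nogo receptor, and the Nogo receptor family genes *Rtn4r* (-3.25), *Rtn4rl2* (-2.65) and *Rtn4rl1* (-1.81). The inhibitors themselves differed. *Omg* fell (-2.11), *Mag* was higher within 2-fold (0.73, edgeR adjusted p = 0.00454) and *Rtn4* lower within 2-fold (-0.75, edgeR adjusted p = 0.00244).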

How the data were processed

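Per the study's methods and the submitters' processing notes, poly(A) RNA had been made into stranded libraries and sequenced as paired reads, and the authors demultiplexed with bcl2fastq 2.19, trimmed with Trimmomatic 0.32, aligned to GRCm38 with STAR 2.5.2b and counted reads per gene with HTSeq. The HTSeq version, its strand setting and the annotation are not given in the sources used here. The deposited values are raw counts per Ensembl gene ID, 1 file per sample, and 5 entries that name no gene (26.6% to 34.3% of tallied reads) were left out. Symbols, biotypes and coordinates were taken from the GENCODE annotation of GRCm38, which matched 45229 of 46078 IDs, and promoter windows from RefSeq (GRCm38.p6).

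Counts of all 6 libraries were fitted in edgeR 4.0.16 (R 4.3.3) with TMM, filterByExpr and the robust quasi-likelihood test on region. Adjusted p-values (Benjamini-Hochberg) cover the 15554 genes tested, and a gene was called at adjusted p under 0.05 and absolute log2 fold change above 1. An exact permutation test of 3 against 3 cannot go below p = 0.1, so single genes were tested only within this fit. Standard errors are from the same fit. The procedure was also run on simulated counts with few changed genes, as many up as down, and the same spread for every gene. The data are unlike that, so this run does not check the scaling or the spread between infarcts here. DESeq2 1.42.0, limma 3.58.1 (voom), another size factor, library totals, 2 other filters, no fold threshold, glmTreat, a replicate block and omission of each library were tried as alternatives.

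The genes and all lists (pathway genes, pairs, cell type markers) were chosen with earlier results of these data known. Full values were planned for the 2 called genes with the largest change in each direction in each family and the most abundant gene of each region. The called genes were to be picked among those whose regions did not overlap and whose higher region averaged at least 10 counts. Lack of overlap was thus a condition of that pick, and it also held for all 11 upregulated and all 17 downregulated genes. Full values of *Sema3a*, *Sema3e*, *Epha3*, *Epha6*, *Efnb2* and *Slit1* were added after the values were seen. Antisense genes that share these letters (3) were not protein-coding and were left out.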

Additional observations from a re-analysis of the deposited data

How the results depend on the processing

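With DESeq2, limma voom or RLE size factors, 11 guidance genes were upregulated, as in the reported fit, and 17, 18 and 17 were downregulated. Of the 11 upregulated genes, 8 kept their call under every alternative fit that they entered, and of the 17 downregulated, 11 did. Among these, *Epha2*, *Epha8*, *Epha10* and *Robo3* did not enter the fit with at least 10 counts in every library. Leaving out each library in turn gave 11 to 12 upregulated and 15 to 21 downregulated guidance genes, the fewest without contralateral cortex 3 and the most without infarct 3. Over the same fits, upregulated plexins numbered 1 to 2, upregulated Slits 0 to 1 and downregulated Slits 0 to 2. Over all genes tested, the same fits gave 4028 to 4174 upregulated and 3145 to 3608 downregulated.

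With no fold threshold, 18 guidance genes were higher (6 semaphorins, 4 plexins, 1 Slit, 2 Robos) and 22 lower (2 plexins, 1 Slit). Under glmTreat, which tests against a 2-fold change, 8 were higher (1 plexin, 1 ephrin, 0 Robos) and 11 lower (0 plexins, 1 ephrin), and *Efna1*, *Efna3*, *Efnb2*, *Epha4*, *Epha7*, *Plxna4*, *Plxnb3*, *Robo4* and *Sema5a* lost their call. With at least 10 counts in every library, fewer genes entered and 1 ephrin rose and 1 Robo fell. With library totals, 15 guidance genes were upregulated (5 semaphorins, 1 Slit) and 16 downregulated, a shift of 0.20 in the median of all genes. With no filter, 15 were downregulated.

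Direction turned only for values near 0. *Plxna2* was 0.0717 and *Sema4a* 0.0427 with library totals. *Plxnb1* was 0.195 with library totals, 0.0164 with the stricter filter, 0.00283 with none, and 0.0789, 0.148 and 0.0912 without contralateral cortex 3, infarct 1 and infarct 2. Without contralateral cortex 1, *Efna2* was -0.129 and *Ephb2* -0.0138. Over the fits that left out 1 library, *Efna2* ranged up to 0.425, *Ephb2* up to 0.376 and *Plxnb1* down to -0.255. The cause of these turns was not tested.

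Samples of the 2 regions share replicate numbers, but deviations of same-numbered samples correlated at -0.19, 0.10 and 0.0011, and not every sample correlated best with its own number, so the numbers were not taken as pairs. With a replicate block, 11 guidance genes were upregulated and 18 downregulated, *Epha6* being the gene added. The depth of 11943570 to 19933962 gene counts limits *Efna4* and *Epha1*, which did not pass the filter, and makes *Efna1* and *Epha2* rest on few counts.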
